A study of Rattus norvegicus with 12 samples.

Results

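The genes described here encode enzymes that remove superoxide, peroxides and quinones, and they are 10 of the 17315 rat genes in the deposited count files. Sod1, Sod2 and Sod3 encode the superoxide dismutases, Cat, Gpx1, Gpx3 and Prdx6 encode enzymes that remove peroxides, and Txnrd1, Nqo1 and Hmox1 encode further enzymes of the oxidant defence. The set was chosen in part by a measured value, the level of Sod3 in the SIRMu-1 line against primary cultures, where it is much lower. Values of the members in that comparison are therefore a description with no test, and Sod3 is described, not tested, in every comparison of cell types.

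Superoxide dismutases turn superoxide into hydrogen peroxide and oxygen, and catalase, glutathione peroxidases and peroxiredoxins then remove the peroxide. Glutathione and thioredoxin supply the electrons for the peroxidases, and NADPH renews both. The transcription factor NRF2, encoded by Nfe2l2, is held down by KEAP1 and switches on many of these genes under oxidative or electrophilic stress; Nqo1, Txnrd1 and Hmox1 are among its best known targets. Müller glia span the retina and are known for their glutathione store and for helping neurons withstand oxidants.

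RNA was read from 12 cultures of Sprague-Dawley rat cells that are all labelled as Müller cells. SIRMu-1 (5 libraries, passages 6, 11, 11, 11 and 20) is a line that arose by spontaneous immortalization of cells from pups 2 to 4 days old, kept in 20% serum, and only its replicates 3 and 5 had gentamicin at 87 mg/L with amphotericin B at 2.2 mg/L. The rMC-1 line (3 libraries, passages 23, 26 and 26) came from adult retina and carries the SV40 large T antigen, and it was kept in 10% serum without these drugs. Primary MC are cultures from the retina of pups of the same ages (4 libraries, passages 4, 4, 3 and 3), with 20% serum and both drugs in all of them. All media had 25 mM glucose. Donor age, serum, passage and the large T antigen differ together between rMC-1 and the other groups and cannot be told apart. Gentamicin and amphotericin B differ along with them between rMC-1 and Primary MC, and cannot be told apart from them there. These drugs are also unevenly spread between SIRMu-1 and Primary MC. Each line is 1 line, so the spread within it is that between its cultures. A code in the file names is shared by Primary MC replicates 1 and 2 and by rMC-1 replicates 1 and 2. In SIRMu-1, replicates 1 to 3 share a code, and so do replicates 4 and 5. What the codes mean is not stated, so libraries that share a code may not be independent, which bears on every n given below.

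Reads in genes came to 26349346 to 36730443 in SIRMu-1 libraries, 27351014 to 38125630 in rMC-1 and 22582345 to 29812705 in Primary MC. Levels are given as CPM, read counts divided by library size, after TMM scaling, a correction for differences in library composition. All 10 members passed the filter on low counts. Cat, Prdx6, Txnrd1 and Hmox1 overlap other genes in the RefSeq annotation, and whether the counting used strand is not known here, so their counts are uncertain to that extent. Summed over 12 Müller glia markers, the level was 3440 to 4470 CPM in SIRMu-1, 1460 to 1550 CPM in rMC-1 and 7240 to 8740 CPM in Primary MC. Vim, a filament gene that many cultured cells express, made up much of this sum, at 3540, 1370 and 6210 CPM on average in the same order. Of the defining markers, Car2 had no read in either line and 7.65 CPM in Primary MC, and Sox2 had no read in SIRMu-1, 14.9 CPM in rMC-1 and 2.49 CPM in Primary MC. Sox9 averaged 71.6 CPM in SIRMu-1, 0.0358 CPM in rMC-1 and 52.2 CPM in Primary MC. In the same order Glul had 56.8, 54.8 and 143 CPM, Slc1a3 23.0, 55.3 and 34.2 CPM and Rlbp1 0.156, 0.91 and 0.0654 CPM. Of 10 Müller markers tested by edgeR, 7 were lower and 0 higher in SIRMu-1 than in Primary MC. In rMC-1, 7 were lower and 1 higher. Of all genes tested, 24.4% and 38.9% were lower in these comparisons. Aqp4 and Kcnj10 were nearly absent everywhere, with 0 and 0 reads in SIRMu-1, 0 and 9 in rMC-1 and 2 and 13 in Primary MC. Fibroblast markers summed to 37800 to 58800 CPM in SIRMu-1, 3360 to 4870 CPM in rMC-1 and 29900 to 135000 CPM in Primary MC. Microglia and macrophage markers summed to at most 4.34, 3.53 and 15.7 CPM in the same order. In such bulk RNA, fewer cells of a type and less RNA per cell cannot be told apart.

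The upstream sequences of 3 members are shown because these genes behave differently below: Sod2 was lower in both lines, Txnrd1 had overlapping levels in all 3 groups, and Nqo1 varied most among the primary cultures. Each is the window from 250 bases before to 50 after the gene start in RefSeq (GRCr8), read 5′ to 3′ on the gene's strand. Capitals mark a match to the core of the antioxidant response element, the site that NRF2 binds, searched as TGACNNNGC on both strands. The Sod2 window is chr1:50050119-50050418, minus strand, that of Txnrd1 is chr7:22755855-22756154, minus strand, and that of Nqo1 is chr19:52220218-52220517, minus strand.
Sod2 promoter: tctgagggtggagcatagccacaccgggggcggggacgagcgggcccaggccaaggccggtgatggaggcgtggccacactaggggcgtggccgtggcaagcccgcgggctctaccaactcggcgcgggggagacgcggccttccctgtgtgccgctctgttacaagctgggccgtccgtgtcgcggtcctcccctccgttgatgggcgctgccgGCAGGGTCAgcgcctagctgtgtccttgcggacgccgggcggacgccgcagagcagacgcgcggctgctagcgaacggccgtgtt
Txnrd1 promoter: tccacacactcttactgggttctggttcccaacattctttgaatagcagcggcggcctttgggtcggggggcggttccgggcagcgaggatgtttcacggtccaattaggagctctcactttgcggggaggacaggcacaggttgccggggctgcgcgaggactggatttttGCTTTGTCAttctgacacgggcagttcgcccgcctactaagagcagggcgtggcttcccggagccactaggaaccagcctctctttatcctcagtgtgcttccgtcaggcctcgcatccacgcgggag
Nqo1 promoter: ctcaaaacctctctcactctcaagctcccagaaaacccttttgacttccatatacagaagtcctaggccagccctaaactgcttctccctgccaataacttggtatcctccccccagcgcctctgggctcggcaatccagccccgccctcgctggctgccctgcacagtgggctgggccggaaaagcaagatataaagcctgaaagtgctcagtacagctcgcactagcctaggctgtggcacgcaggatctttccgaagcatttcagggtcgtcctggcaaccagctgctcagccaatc
RefSeq windows were at hand for 7 of the 10 members, and 2 of those genes held a match. The Sod2 match (GCAGGGTCA) began 35 bases before the start and the Txnrd1 match (GCTTTGTCA) 78 bases before it, both on the strand opposite to the gene. Txnrd1 has a further window with no match. Of all 33469 windows of this length, 4038 (12.1%) held the motif. A match is a string of letters and not a measured site, and its absence from the Nqo1 window says nothing about sites farther away.

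**Figure D1:**
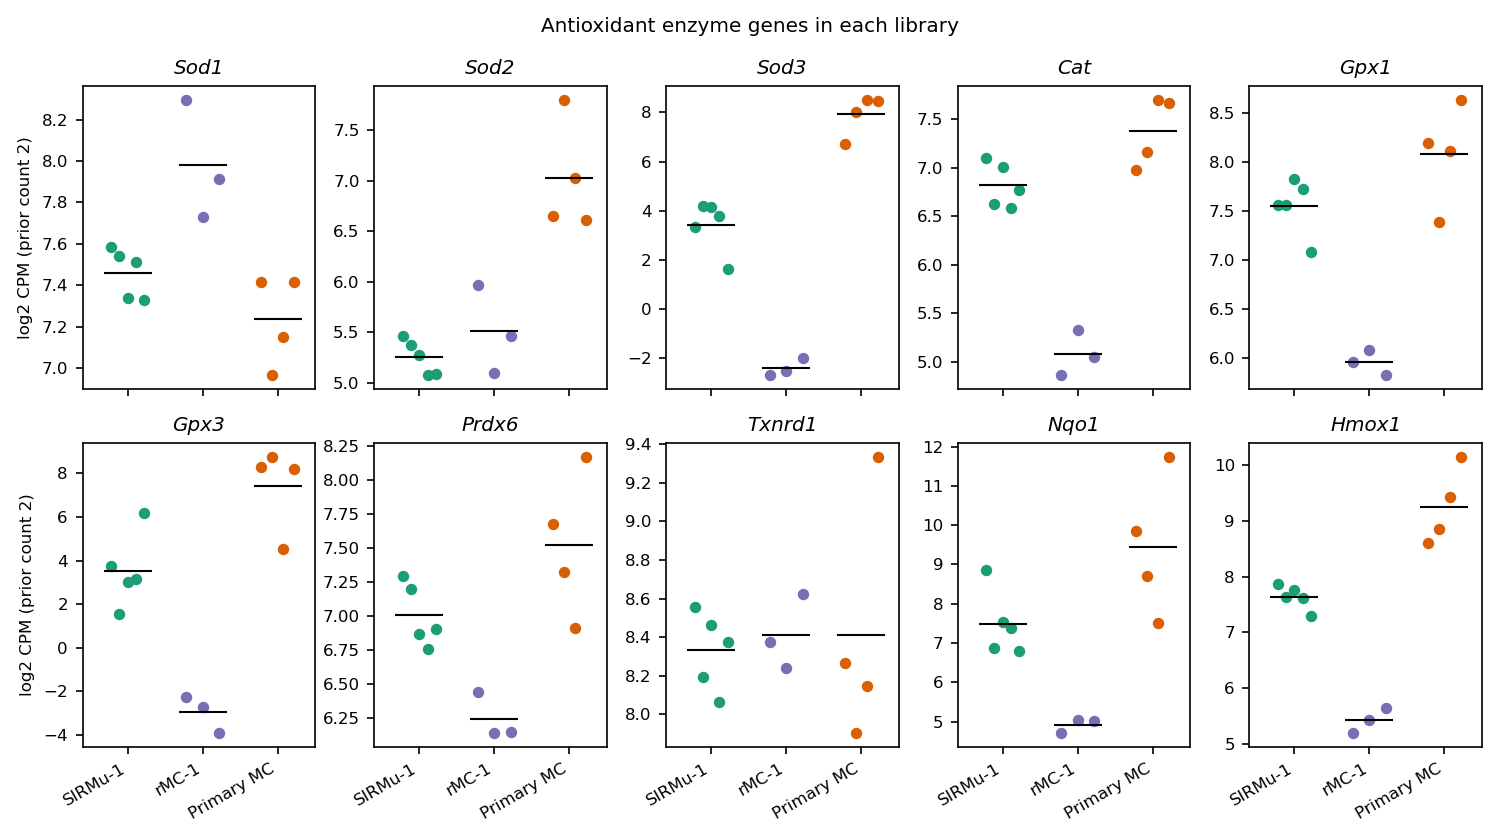
Log2 CPM (prior count 2, which keeps a count of 0 on the axis) of each of the 10 genes in every library, with SIRMu-1, rMC-1 and Primary MC from left to right; points are libraries and bars are group means. Sod3 and Gpx3 lie far lower in rMC-1 than in the other groups, Txnrd1 overlaps in all groups, and Nqo1 spans 181 to 3399 CPM within Primary MC.

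Sod3 encodes the secreted superoxide dismutase, which binds to matrix and cell surfaces outside the cell. It had 9.89, 18.0, 17.8, 13.7 and 3.03 CPM in SIRMu-1 replicates 1 to 5, 0.0855, 0.103 and 0.184 CPM in rMC-1 and 106, 259.5, 366.5 and 350.1 CPM in Primary MC. The 3 groups did not overlap, and rMC-1 was near the limit of detection, with 3, 5 and 7 reads per library. The mean was 12.5 ± 6.26 CPM in SIRMu-1 (SD, n = 5) and 271 ± 119 CPM in Primary MC (SD, n = 4), 21.6-fold lower in SIRMu-1 (log2 fold change -4.44 ± 0.50). Here and everywhere below, ± is the standard error after a log2 fold change and the SD over libraries after a CPM value. Pooled over libraries, the level in rMC-1 was lower still, with a ratio of SIRMu-1 to rMC-1 of 102 (95% interval from counting error alone 61.8 to 183) and of Primary MC to rMC-1 of 2150 (1300 to 3840). SIRMu-1 replicate 5, the culture at passage 20, was the lowest of its line, and Primary MC replicate 1 was the lowest primary culture.

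Sod3 is also made by smooth muscle and fibroblasts, and levels of markers of these cells are given here. Summed over 8 markers of pericytes and smooth muscle, the level was 6980 to 16700 CPM in SIRMu-1, 1440 to 3670 CPM in rMC-1 and 10100 to 14900 CPM in Primary MC. Acta2 (7610, 1680 and 5860 CPM on average in the same order) and Tagln (4630, 606 and 3870 CPM) made up much of that sum. Single markers went both ways. Myh11 averaged 7.66 CPM in SIRMu-1 and 50.6 CPM in Primary MC, and Cspg4 294 and 85.1 CPM. Of the fibroblast markers, Dcn averaged 4.54 CPM in SIRMu-1 and 681 CPM in Primary MC, Thy1 0.0287 and 566 CPM, and Pdgfra 56.8 and 53.0 CPM. In rMC-1, 6 of the 7 tested markers of this list and 8 of 8 fibroblast markers were lower than in Primary MC. In SIRMu-1, 1 of 7 and 4 of 8 were lower. The part of these cells in the Sod3 levels was not tested.

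Sod2 encodes the manganese enzyme of mitochondria, which inflammatory signals are known to raise. Its levels were 44.2, 41.4, 38.9, 33.7 and 34.1 CPM in SIRMu-1, 62.8, 34.2 and 44.2 CPM in rMC-1 and 101, 223, 130.4 and 97.8 CPM in Primary MC. Both lines lay below every primary culture and overlapped each other. Against Primary MC the log2 fold change was -1.84 ± 0.25 in SIRMu-1 and -1.55 ± 0.29 in rMC-1, the second with an edgeR adjusted p of 0.000569. Between SIRMu-1 and rMC-1 the difference of -0.29 ± 0.27 did not pass the test (edgeR adjusted p = 0.362).

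Sod1, the copper and zinc enzyme of the cytosol, went the other way. It had 161 to 192 CPM in SIRMu-1, 314, 212 and 241 CPM in rMC-1 and 125, 142, 170.4 and 171 CPM in Primary MC. All rMC-1 libraries were above all others, while SIRMu-1 and Primary MC overlapped. In rMC-1, Sod1 rose by a log2 fold change of 0.75 ± 0.15 over Primary MC (edgeR adjusted p = 0.000923), and SIRMu-1 was below rMC-1 by -0.53 ± 0.15 on that scale (edgeR adjusted p = 0.00702). SIRMu-1 against Primary MC gave 0.22 ± 0.14. By their means, the 3 dismutases had 3 different orders of groups. Levels overlapped between the lines for Sod2 and between SIRMu-1 and Primary MC for Sod1, so those parts of the orders are not settled.

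Gpx3 encodes the secreted glutathione peroxidase, a selenoprotein. It had 13.5, 2.83, 7.93, 8.89 and 72.1 CPM in SIRMu-1, 0.142, 0.0824 and 0 CPM in rMC-1 and 314, 430.1, 23.2 and 292 CPM in Primary MC. Every rMC-1 library lay below all others, with 5, 4 and 0 reads. SIRMu-1 replicate 5 was above Primary MC replicate 3, so those groups overlapped, although the means were 21.0 ± 28.8 CPM in SIRMu-1 (SD, n = 5) and 265 ± 172 CPM in Primary MC (SD, n = 4). Gpx3 fell in rMC-1 relative to Primary MC (edgeR adjusted p = 0.000136), and the ratio of pooled levels, Primary MC to rMC-1, was 3700 (95% counting interval 1950 to 8090). In SIRMu-1 it was higher than in rMC-1 (edgeR adjusted p = 0.00134; pooled ratio 273, interval 144 to 598), by a log2 fold change of 8.07 ± 1.68 that came to 6.64 without SIRMu-1 replicate 5, which holds most of the line's Gpx3 reads, and to 7.46 without rMC-1 replicate 3. In rMC-1 against Primary MC the log2 fold change of -11.72 ± 1.84 moved to -12.31 without rMC-1 replicate 1 and to -11.12 without rMC-1 replicate 3. Its log2 fold change in SIRMu-1 against Primary MC was -3.66 ± 0.95, and -5.02 without SIRMu-1 replicate 5.

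The order Primary MC, SIRMu-1, rMC-1 from high to low that Sod3 and Gpx3 had was shared by Cat, Gpx1, Prdx6, Nqo1 and Hmox1. Cat, the peroxisomal catalase, had 137, 98.7, 129, 95.9 and 109 CPM in SIRMu-1, 29.0, 40.2 and 33.0 CPM in rMC-1 and 126, 144, 208 and 203 CPM in Primary MC. SIRMu-1 and Primary MC overlapped, and rMC-1 stood apart below both. Cat fell in rMC-1 by a log2 fold change of -2.32 ± 0.22 against Primary MC (edgeR adjusted p = 2.83e-06) and was 1.74 ± 0.21 higher in SIRMu-1 than in rMC-1 (edgeR adjusted p = 2.32e-05). SIRMu-1 against Primary MC gave -0.58 ± 0.18. Gpx1, the widespread intracellular glutathione peroxidase, ranged from 135 to 226 CPM in SIRMu-1, from 56.7 to 67.7 CPM in rMC-1 and from 168 to 396 CPM in Primary MC. Its log2 fold changes, -2.18 ± 0.26 for rMC-1 against Primary MC (edgeR adjusted p = 1.87e-05), 1.61 ± 0.25 for SIRMu-1 against rMC-1 (edgeR adjusted p = 0.000166) and -0.58 ± 0.21 for SIRMu-1 against Primary MC, were close to those of Cat.

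Prdx6, a peroxiredoxin that reduces peroxidized phospholipids with glutathione, showed a smaller difference. It ranged from 108 to 157 CPM in SIRMu-1, from 70.5 to 86.8 CPM in rMC-1 and from 120.3 to 288 CPM in Primary MC. The rMC-1 libraries were below all others. Relative to Primary MC it fell in rMC-1 by -1.35 ± 0.26 on the log2 scale (edgeR adjusted p = 0.000603). It was 0.77 ± 0.24 higher in SIRMu-1 than in rMC-1 (edgeR adjusted p = 0.0156), a call that was lost without rMC-1 replicate 2 (adjusted p = 0.0873) or replicate 3 (0.0891) and when libraries were scaled by their totals (0.32, adjusted p = 0.316).

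Txnrd1 encodes the cytosolic thioredoxin reductase, a selenoprotein that renews thioredoxin with NADPH. It ranged from 267 to 376 CPM in SIRMu-1, from 302 to 395 CPM in rMC-1 and from 239.7 to 644 CPM in Primary MC, where replicate 4 was the highest. All groups overlapped. The log2 fold change was -0.10 ± 0.29 for rMC-1 against Primary MC (edgeR adjusted p = 0.758) and -0.08 ± 0.28 for SIRMu-1 against rMC-1 (edgeR adjusted p = 0.82). Without Primary MC replicate 4 the first was 0.31, so no direction can be given.

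Nqo1 encodes NAD(P)H quinone dehydrogenase, which reduces quinones to hydroquinones. Its levels were 468, 117, 185, 167 and 112 CPM in SIRMu-1, 26.2, 33.1 and 32.2 CPM in rMC-1 and 931, 420.4, 181 and 3399 CPM in Primary MC. Primary MC replicate 4 had the most and replicate 3 the least of the primary cultures, and replicate 3 lay within the range of SIRMu-1. The mean was 210 ± 148 CPM in SIRMu-1 (SD, n = 5), 30.5 ± 3.73 CPM in rMC-1 (SD, n = 3) and 1230 ± 1480 CPM in Primary MC (SD, n = 4). Nqo1 fell in rMC-1 by -5.34 ± 1.01 on the log2 scale against Primary MC (edgeR adjusted p = 0.00057), and by -4.07 without Primary MC replicate 4 (edgeR adjusted p = 0.000343). It was 2.78 ± 0.87 higher in SIRMu-1 than in rMC-1 (edgeR adjusted p = 0.015), a call lost without any 1 of the 3 rMC-1 replicates (adjusted p = 0.0507 to 0.0597), although the groups did not overlap. Against Primary MC, SIRMu-1 had a log2 fold change of -2.55 ± 0.72, and -1.29 without Primary MC replicate 4.

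Hmox1 encodes heme oxygenase 1, which breaks down heme to biliverdin, carbon monoxide and iron. It had 234, 199, 218, 196 and 157 CPM in SIRMu-1, 36.7, 42.7 and 50.2 CPM in rMC-1 and 389, 465, 687.5 and 1133 CPM in Primary MC. The 3 groups did not overlap. Hmox1 fell in rMC-1 by -3.95 ± 0.36 on the log2 scale against Primary MC (edgeR adjusted p = 2.21e-06) and was 2.22 ± 0.32 higher in SIRMu-1 than in rMC-1 (edgeR adjusted p = 0.000101). SIRMu-1 against Primary MC gave -1.74 ± 0.27.

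**Figure D2:**
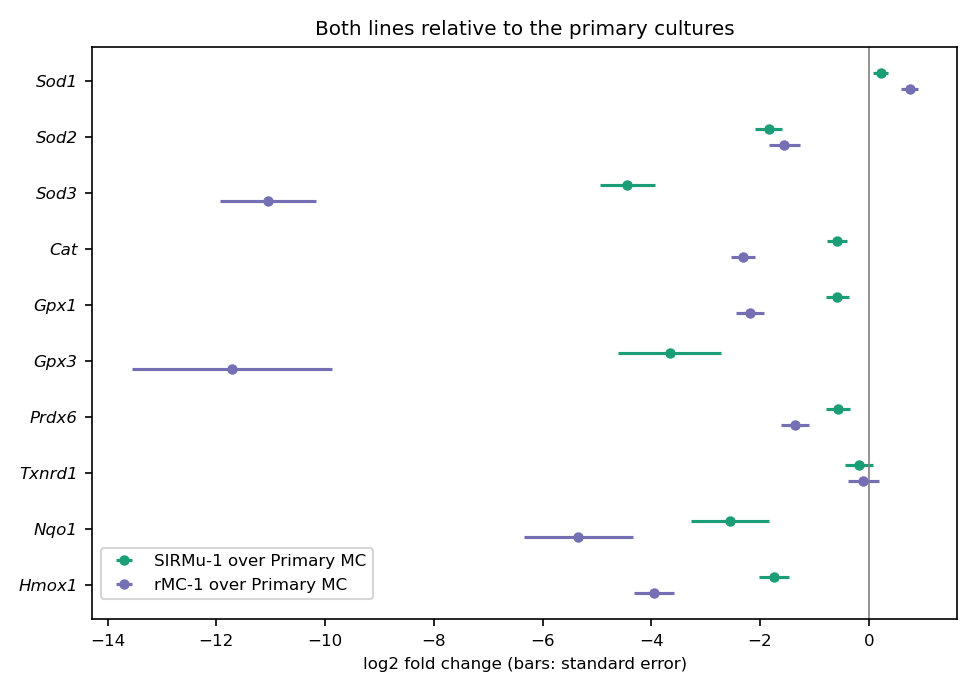
Log2 fold change with its standard error for each of the 10 genes in SIRMu-1 and in rMC-1, each relative to Primary MC; values below 0 are lower in the line. In rMC-1 against Primary MC, Gpx3 (-11.72) and Sod3 (-11.05) are farthest from 0 and Sod1 (0.75) lies above 0.

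Counted together, 7 of the 9 members other than Sod3 fell and 1 rose in rMC-1 relative to Primary MC, and 1 did not pass the test. Across all 11321 genes tested, 38.9% fell and 31.9% rose in that comparison, so 70.8% were called. The 2 groups did not overlap for 8 of the 9, against 70.9% of all genes. In SIRMu-1 relative to rMC-1, 6 of the 9 were higher, 1 was lower and 2 did not pass, against 32.7% of all genes higher and 30.5% lower. These groups did not overlap for 7 of the 9, against 63% of all genes. The median log2 fold change over the 10 members, Sod3 included, was -2.25 in rMC-1 against Primary MC, where that over all genes was -0.15. It was 1.68 in SIRMu-1 against rMC-1, where that over all genes was 0.03. Since Sod3 was chosen by its value, these medians are a description. These comparisons share the rMC-1 libraries and are not separate evidence. In SIRMu-1 against Primary MC the members were described and not counted by calls. Sod2, Sod3 and Hmox1 were the only 3 members whose SIRMu-1 and Primary MC libraries did not overlap (35.3% of all genes did not overlap there, in either direction). Nothing is read from this overlap count, since that comparison chose the set.

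Primary MC replicate 4 had the highest level among primary cultures for 6 of the 10 members. The share of all genes that were highest there was not counted. Of some other genes with a known link to NRF2, chosen after their values were seen, Srxn1 was at 254 CPM there and at 69.1 to 131 CPM in the other primary cultures. Fth1, a ferritin subunit, was at 4720 CPM there and at 1020 to 2100 CPM in the others. Gclm was at 25.4 CPM there and at 13.8 to 17.7 CPM in the others, and Slc7a11 at 24.9 CPM and 10.6 to 16.8 CPM. Taldo1 was at 218 CPM there and at 93.4 to 121 CPM in the others. Me1 (288 CPM, others 257 to 305) and Mgst1 (11.1 CPM, others 4.93 to 21.0) did not stand out there, and Sqstm1 was at 675 CPM, with 543 to 669 CPM in the others. Its fibroblast markers summed to 29900 CPM, against 86500 to 135000 CPM, and its astrocyte markers to 44.7 CPM, against 5.35 to 7.42 CPM. On average over Primary MC, Col1a1 (56500 CPM) and Col3a1 (20100 CPM) made up most of the fibroblast sum. Gfap (6.69 CPM) and S100b (7.4 CPM) made up most of the astrocyte sum. The part of its cell makeup in these levels was not tested.

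The SIRMu-1 cultures with gentamicin and amphotericin B (replicates 3 and 5) were compared with those without (replicates 1, 2 and 4). Sod3 had 17.8 and 3.03 CPM with the drugs and 9.89, 18.0 and 13.7 CPM without them. The groups overlapped, and the log2 fold change was -0.41 ± 0.65 (edgeR adjusted p = 0.985). None of the 10 members passed the test, nor did any of the 11321 genes (0% called by edgeR, with 433 at an unadjusted p under 0.05 and 4 genes called by DESeq2). Gpx3 gave 2.25 ± 1.06 (edgeR adjusted p = 0.977) and Nqo1 -0.75 ± 1.00 (edgeR adjusted p = 0.977), both with wide errors. Sod1 was the only member whose groups did not overlap (16% of all genes had groups that did not overlap). At passage 11, Sod3 had 17.8 CPM in replicate 3 with the drugs and 18.0 and 13.7 CPM in replicates 2 and 4 without them.

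Within SIRMu-1, passage differed along with the drugs, and passages 6 and 20 each had 1 culture. The culture at passage 6 was the highest of the line for 7 of the 10 members, including Nqo1 at 468 CPM against 112 to 185 CPM in the others. The culture at passage 20 was the lowest for 5 members, including Sod3, but had the most Gpx3. With 1 culture at each end these are values and not a trend. The share of all genes that were highest or lowest in either culture was not counted.

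**Figure D3:**
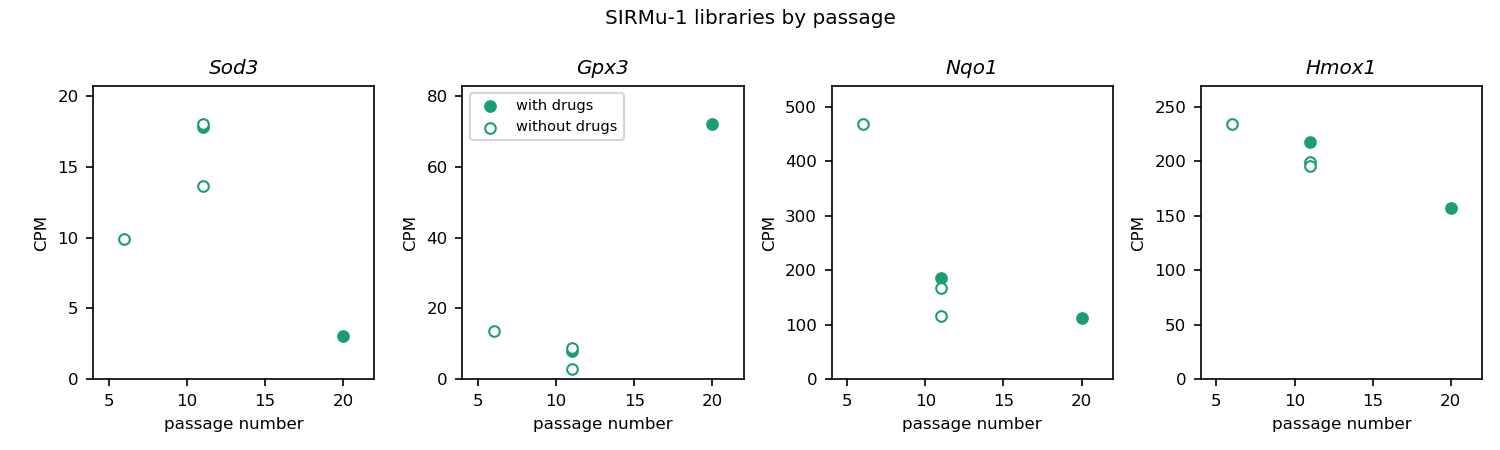
CPM of Sod3, Gpx3, Nqo1 and Hmox1 against passage number in the 5 SIRMu-1 cultures, with filled points for cultures with gentamicin and amphotericin B and open points for those without. The passage 20 culture has the least Sod3 (3.03 CPM) and the most Gpx3 (72.1 CPM), and the passage 6 culture has the most Nqo1 (468 CPM).

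Among 7878 genes compared with Sod3 over the 12 libraries by the Pearson correlation of log2 CPM, the most alike were Itga1 (r = 0.995), Sdf4 (0.990), Gpr107 (0.985), Nucb1 (0.984) and Itm2c (0.982). Itga1, an integrin subunit that binds collagen, had 12.2 to 38.4 CPM in SIRMu-1, 1.48 to 2.43 CPM in rMC-1 and 123 to 243 CPM in Primary MC. For Nqo1 the most alike were Serpinb6 (0.963), Prdx6 (0.957), Acadvl (0.957), Gk (0.955) and Sumf2 (0.952). Gk, glycerol kinase, had 16.6 to 29.0 CPM in SIRMu-1, 11.5 to 12.8 CPM in rMC-1 and 30.2 to 177 CPM in Primary MC. The libraries form 3 groups, and any gene with the same order of groups scores high, so these values are descriptions.

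Genes around these enzymes were taken from 12 lists of 118 genes, of which 115 were in the files and 105 were tested. Genes are named from each list by the size of their change, from those called whose log2 CPM averaged at least 3, so called genes of lower level can lie farther from 0. In rMC-1 against Primary MC, 24 were higher, 41 were lower and 40 did not pass, so 61.9% were called against 70.8% of all genes. The largest block in the higher direction was glutathione synthesis and recycling, where 9 of 12 rose and none fell (median log2 fold change 0.92). The list also holds genes of glutathione breakdown, such as Chac1, which rose (1.77 ± 0.46, edgeR adjusted p = 0.00436). Of the synthesis enzymes, Gclm rose (1.52 ± 0.20), while Gclc (0.29 ± 0.31, edgeR adjusted p = 0.421) and Gss (-0.69 ± 0.30, edgeR adjusted p = 0.0593) did not pass. Slc7a11, the cystine importer, had 168 ± 77.0 CPM in rMC-1 and 17.1 ± 5.91 CPM in Primary MC (log2 fold change 3.29 ± 0.41, edgeR adjusted p = 2.38e-05). The glutathione transferases were divided, with 4 of 15 higher, among them Mgst1 (2.60 ± 0.41), and 7 lower, among them Gstt2 (-1.17 ± 0.33). All 3 tested of the 6 other glutathione peroxidases fell, and Gpx7, which acts in the endoplasmic reticulum, was at 0.419 ± 0.0839 CPM in rMC-1 and 45.4 ± 30.7 CPM in Primary MC (-6.76 ± 0.61).

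In the thioredoxin and glutaredoxin system, 8 of 14 were lower and 2 higher in rMC-1 than in Primary MC. Srxn1, which repairs overoxidized peroxiredoxins, fell (-2.19 ± 0.51, edgeR adjusted p = 0.00223), and Txnrd2, the mitochondrial thioredoxin reductase, rose (1.16 ± 0.23). Of the 5 other peroxiredoxins, 2 rose, among them Prdx2 (1.27 ± 0.16), and 1 fell, Prdx5 (-0.68 ± 0.25), whose call was lost in 5 of the fits that left out a library. Of the 5 genes of copper delivery to superoxide dismutases, 3 fell and none rose. Atp7a, the copper pump that loads secreted enzymes such as SOD3, had 32.8 ± 4.47 CPM in rMC-1 and 94.7 ± 19.2 CPM in Primary MC (-1.53 ± 0.18, edgeR adjusted p = 1.5e-05).

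Selenium supply also bears on the glutathione peroxidases. Of 7 genes of this list, 2 rose in rMC-1 relative to Primary MC, among them Eefsec (1.29 ± 0.14), the elongation factor for selenocysteine, and 1 fell, Sepp1. Sepp1, which encodes the secreted selenium carrier selenoprotein P, had 0.684 ± 0.483 CPM in rMC-1 and 70.3 ± 35.0 CPM in Primary MC (-6.64 ± 0.87, edgeR adjusted p = 3.4e-05; -7.34 without rMC-1 replicate 2). In heme and iron handling, 4 of 9 fell, among them the ferritin subunit Ftl1 (-2.77 ± 0.27), and 2 rose, among them the transferrin receptor Tfrc (1.63 ± 0.24). Of 10 genes of NADPH supply, 5 fell, among them the cytosolic Idh1 (-2.87 ± 0.28), and 2 rose, among them the mitochondrial Idh2 (1.12 ± 0.27).

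Among 8 genes of NRF2 control, 2 fell in rMC-1 relative to Primary MC and none rose. Sqstm1, whose product binds KEAP1, fell (-1.54 ± 0.12, edgeR adjusted p = 6.11e-07), and so did Nfe2l2 itself, at 180 ± 26.1 CPM in rMC-1 and 279 ± 62.3 CPM in Primary MC (-0.63 ± 0.19, edgeR adjusted p = 0.0104). Keap1 (-0.11 ± 0.11, edgeR adjusted p = 0.396) and Bach1, which represses Hmox1 (0.04 ± 0.27, edgeR adjusted p = 0.903), did not pass. Of 11 enzymes that produce oxidants, 5 fell and 1 rose. Cyba, the membrane partner of the NADPH oxidases, had 1.82 ± 0.198 CPM in rMC-1 and 107 ± 19.4 CPM in Primary MC (-5.89 ± 0.24, edgeR adjusted p = 1.77e-08). In the peroxisome list, 2 of 6 fell, among them Acox3 (-0.65 ± 0.19), whose call was lost in 2 of the fits that left out a library.

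In SIRMu-1 against rMC-1, 32 list genes were higher, 24 lower and 49 did not pass (53.3% called, against 63.2% of all genes). Glutathione synthesis and recycling had 8 of 12 lower and 1 higher (median -1.01), with Slc7a11 at -2.16 ± 0.37 (edgeR adjusted p = 0.000327). Mgst1 was lower in SIRMu-1 (-4.22 ± 0.40), and Gstz1 was higher (1.35 ± 0.12). In the thioredoxin system 6 of 14 were higher, among them Msrb1 (1.35 ± 0.19), and 2 were lower, among them Txn1 (-0.83 ± 0.22). Gpx7 (7.63 ± 0.63), Cyba (5.70 ± 0.24) and Sepp1 (4.74 ± 0.79) were all higher in SIRMu-1. Of 10 genes of NADPH supply, 5 were higher in SIRMu-1, among them Me1, malic enzyme, with 318 ± 31.3 CPM in SIRMu-1 and 50.1 ± 3.56 CPM in rMC-1 (2.67 ± 0.12, edgeR adjusted p = 3.46e-08). Duox1, which makes hydrogen peroxide, was lower, with 11.7 ± 13.6 CPM in SIRMu-1 and 232 ± 52.4 CPM in rMC-1 (-4.31 ± 0.72, edgeR adjusted p = 0.000293). SIRMu-1 replicate 5 had 35.9 CPM of Duox1 and the other 4 cultures 2.14 to 7.41 CPM, and without it the log2 fold change was -5.43. For Sepp1 the value without rMC-1 replicate 2 was 5.41.

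In SIRMu-1 against Primary MC, 12 list genes were higher, 28 lower and 65 did not pass (38.1% called, against 46.1% of all genes). Enzymes that produce oxidants had 6 of 11 lower and none higher, with Duox1 at 11.7 ± 13.6 CPM in SIRMu-1 and 85.1 ± 38.7 CPM in Primary MC (-2.86 ± 0.67, edgeR adjusted p = 0.00455), and at -3.92 on the log2 scale without SIRMu-1 replicate 5. In heme and iron handling none rose and 4 of 9 fell, among them Fth1 at 657 ± 115 CPM in SIRMu-1 and 2330 ± 1650 CPM in Primary MC (-1.83 ± 0.36, edgeR adjusted p = 0.00159; -1.23 without Primary MC replicate 4). Gpx4, which reduces lipid peroxides in membranes, fell (-0.95 ± 0.15, edgeR adjusted p = 0.000447), and Prdx4, the peroxiredoxin of the endoplasmic reticulum, rose (0.87 ± 0.19, edgeR adjusted p = 0.00335). Of 7 genes of selenium supply, 3 rose, among them Pstk (0.62 ± 0.16), and 1 fell, Sepp1 (-1.90 ± 0.55). Of 5 genes of copper delivery, 2 fell, among them Atp7a (-0.79 ± 0.15), and 0 rose. Of 10 genes of NADPH supply, 3 rose, among them Idh2 (1.14 ± 0.25), and 3 fell, among them Taldo1 (-0.66 ± 0.23). With libraries of a shared file-name code summed, the calls of Fth1 (adjusted p = 0.065), Prdx4 (0.0712), Sepp1 (0.0626), Pstk (0.0726), Taldo1 (0.154) and Srxn1 (0.0559) were lost. In the thioredoxin system only Srxn1 of 14 genes passed (-1.36 ± 0.41, edgeR adjusted p = 0.0186), and not without Primary MC replicate 4 (-0.85, adjusted p = 0.0781). Of 8 NRF2 control genes, 2 rose, among them Mafk (0.56 ± 0.21, edgeR adjusted p = 0.0492), whose call was lost in 14 of 20 alternatives. In that list 1 gene fell, Sqstm1 (-0.44 ± 0.10), and Nfe2l2 did not pass (-0.26 ± 0.16, edgeR adjusted p = 0.211).

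**Figure D4:**
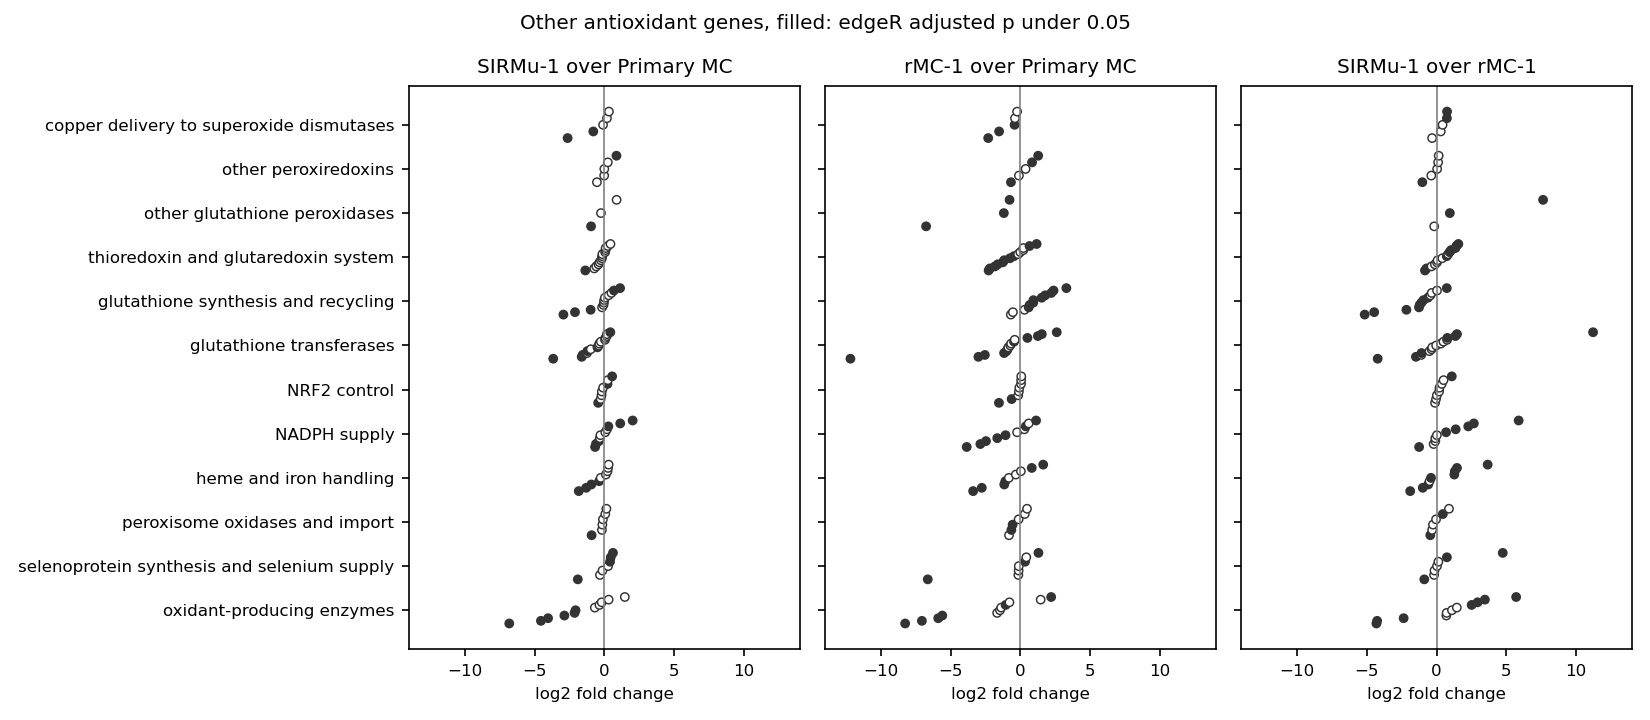
Log2 fold change of each tested gene in the 12 lists around the antioxidant enzymes, in the 3 comparisons of cell types, with filled points for genes at an edgeR adjusted p under 0.05. Genes of glutathione synthesis and recycling, a list that also holds breakdown genes, lie mostly above 0 in rMC-1 against Primary MC (9 of 12 higher). They lie mostly below 0 in SIRMu-1 against rMC-1 (8 of 12 lower).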

How the data were processed

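PolyA RNA of 12 cultures was sequenced with a stranded kit. The submitters' processing notes name build rn6 and the tools STAR 2.5.3a, cutadapt 1.8.1 and edgeR 3.18.1; what each did, the annotation and how the counting used strand are not stated in the labels. The authors deposited 1 file per library of raw whole-number read counts of 17315 genes, and a log2 CPM table of 10236 genes, which matched edgeR's log2 CPM of the deposited counts (TMM, prior count 0.25) within 5e-14 and was used for that check alone. Rows that name no gene, 37.0% to 44.2% of a library's reads, were left out. Reads mapping to several places are among them, so genes with near-identical copies, such as Fth1, Ftl1 and Prdx genes, have uncertain counts. Of the other genes named, Gpx7, Prdx5, Acox3, Gstz1, Eefsec, Mafk, Gss and Txnrd2 overlap other genes in the RefSeq annotation, so their counts are uncertain too.

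Tests used edgeR 4.0.16 in R 4.3.3 (expression filter, which kept 11321 genes; TMM; quasi-likelihood test of 3 group means over 12 libraries, 9 residual degrees of freedom; for the drugs 8, with SIRMu-1 split). P-values were adjusted by Benjamini-Hochberg over all genes tested and called under 0.05. The labels do not tie cultures to animals, so p-values measure only how these libraries spread, which may be technical. Counting intervals cover counting error only and are exact at 95%. List genes were named by a rule, in each list and comparison. It took the called gene with the largest change in each direction, with a mean log2 CPM of at least 3. Outside it, Nfe2l2, Keap1, Bach1, Gclc, Gclm, Chac1, Gss in rMC-1 against Primary MC and genes in observations were chosen after their values were seen. The members and lists were chosen with earlier results of these data known. The alternatives were DESeq2 1.42.0, library totals in place of TMM, other filters, a replicate block, libraries of a shared file-name code summed, and leaving out each library.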

Additional observations from a re-analysis of the deposited data

Results flagged for a closer look

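In groups of 4 or 5 libraries, 3 of the 20 groups of member levels had a library far from the others by Dixon's criterion, which chance gives in about 1 of 20. Gpx3 stood at 72.1 CPM in SIRMu-1 replicate 5 (passage 20, with drugs), and at 2.83 to 13.5 CPM in the other SIRMu-1 cultures. Nqo1 stood at 468 CPM in SIRMu-1 replicate 1 (passage 6, without drugs), and at 112 to 185 CPM in the others. Txnrd1 stood at 644 CPM in Primary MC replicate 4, and at 239.7 to 307 CPM in the other primary cultures.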

How the results depend on the processing

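Of 417 tested member values under the alternatives, 400 kept their direction and side of the threshold, 8 lost the call, 1 gained it and 8 turned round. Of 240 values described without a test, 1 turned round, and their side of a threshold was not followed. Txnrd1 in rMC-1 against Primary MC turned to 0.33 with library totals and 0.11 with the replicate block, and ranged from -0.27 to 0.31 (without Primary MC replicate 4) when 1 library was left out; in SIRMu-1 against Primary MC it ranged from -0.35 to 0.22. For the drugs, leaving out 1 library gave -2.19 to 0.36 for Sod3 and -0.09 to 3.10 for Gpx3, both turned without SIRMu-1 replicate 5, and -1.17 to 0.07 for Nqo1, turned without SIRMu-1 replicate 1; Nqo1 was 1.05 with the replicate block. None of these was called, and the cause was not tested. Of 1100 values of named list genes, 67 lost the call and 0 turned round; Mafk in SIRMu-1 against Primary MC (0.56) lost it in 14 of 20 alternatives and Gss in SIRMu-1 against rMC-1 (0.73) in 13.

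With libraries of a shared file-name code summed (fewer samples), SIRMu-1 against Primary MC gave 3173 calls in place of 5220 and 19 list genes in place of 40. Nqo1 and Prdx6 in SIRMu-1 against rMC-1 then had adjusted p of 0.129 and 0.171. The sum was not run for the drugs, where DESeq2 called 4 genes and edgeR 0. Leaving out 1 library gave 7423 to 8201 calls in rMC-1 against Primary MC, with 56 to 67 list genes and 8 to 8 members. In SIRMu-1 against rMC-1 it gave 6249 to 7287 calls, with 49 to 57 list genes and 5 to 7 members. In SIRMu-1 against Primary MC it gave 4572 to 5339 calls, with 33 to 40 list genes. For the drugs it gave 0 to 2 calls (2 without SIRMu-1 replicate 3), with 0 to 0 members.

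Scaling by library totals moved the median of all genes in rMC-1 against Primary MC to 0.32, against -0.15 with TMM, and the share of calls that were higher to 61.9%, against 45.1%. In SIRMu-1 against rMC-1 the median was -0.40, against 0.03, and the share 30.8%, against 51.7%. There Sod2 gained a call (-0.74, adjusted p = 0.021) and Pex13 came to 0.00. The replicate block gave 8019, 7157 and 4973 calls in rMC-1 against Primary MC, SIRMu-1 against rMC-1 and SIRMu-1 against Primary MC. Same-numbered libraries deviated together with correlations of -0.063 to 0.098 and a library's best match in another group had its own number in 8 of 20 cases, so the numbers are not taken to pair the cultures. Depth limits Sod3 and Gpx3 in rMC-1, with 15 and 9 reads in all.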

Other observations

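Gsta1 and Xdh, chosen after their values were seen, differed most between groups among the list genes of low mean level. Gsta1, a glutathione transferase, averaged 29.4 ± 18.8 CPM in SIRMu-1 (SD, n = 5), 0.00878 ± 0.0152 CPM in rMC-1 (SD, n = 3) and 57.7 ± 42.9 CPM in Primary MC (SD, n = 4). Xdh, which encodes xanthine dehydrogenase, averaged 0.612 ± 0.481 CPM in SIRMu-1, 0.234 ± 0.32 CPM in rMC-1 and 69.0 ± 76.0 CPM in Primary MC, so it was near 0 in both lines, whereas Gsta1 was near 0 in rMC-1 only. Gclm, the regulatory subunit of the enzyme that starts glutathione synthesis, averaged 22.4 ± 3.30 CPM in SIRMu-1, 51.6 ± 6.81 CPM in rMC-1 and 18.0 ± 5.19 CPM in Primary MC, so it was highest in rMC-1, where Nqo1 was lowest.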
